A study of Mus musculus with 4 samples.

Results

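A set of 41 cell cycle and DNA replication genes was followed in the livers of male mice of 2 reciprocal first-generation crosses. The genes were taken from a fixed list, and each was read by the array probe set that carried its symbol alone, the brightest over all arrays where several did. Of the 41 genes, 40 had such a probe set among the 18193 genes read in this way, and 25 were bright enough to be tested among 11748. The list was split by role into 19 genes of the G1/S transition and replication, of which 16 were tested, and 22 mitotic genes, of which 9 were tested. Another 15 genes were dim and are described apart, and Ccnb1 had no probe set of its own in the annotation used and was not analysed here.

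RNA from whole liver slices was hybridised to 4 Affymetrix arrays, 1 per mouse. In AB6F1 (n = 2) the dam was AJ and the sire B6, and in B6AF1 (n = 2) the strains of dam and sire were exchanged. All 4 mice were 9 months old, ate chow and received no intervention. The study is one of fatty liver disease, and the labels name no other comparison. Autosomes are shared alike by both crosses, and none of the 40 genes with a probe set lies on X, Y or the mitochondrial genome in the RefSeq table. The mice are numbered as biological replicates, and p-values measure only spread between mice. Each gene's spread is drawn by limma toward that of genes of like signal. Differences are AB6F1 minus B6AF1 on the log2 scale.

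Cells enter the cycle when D-type cyclins with their kinases release E2F factors from the retinoblastoma proteins. E2F then drives the genes that license origins, unwind DNA and supply nucleotides, and the MuvB complex with B-Myb and Foxm1 drives the genes of mitosis. Most hepatocytes of an adult liver rest outside the cycle and can return to it after injury or loss of tissue, while immune, endothelial and stellate cells of the same slice can divide as well. Fewer cycling cells and less RNA per cell cannot be told apart in whole tissue.

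Cell cycle promoters share short sequences that tell their parts of the cycle apart, and these are shown first because the array values below are ordered by the same split. Windows of 300 bases, from 250 before to 50 after the gene start, were held in the RefSeq table of mouse build GRCm38.p6 for 33 of the 41 genes, 35 windows in all, since Mcm7 and Prc1 had 2 each. Words of 3 kinds were searched on both strands. The E2F site was written as TTTCCCGC, TTTGGCGC, TTTCGCGC or TTTGCCGC, the cell cycle homology region (CHR), which MuvB binds, as TTTGAA or TTCGAA, and the box bound by NF-Y as CCAAT. Words on opposite strands can overlap, as a pair of E2F words does in Mcm5 and in Mcm6.

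An E2F word was found in 6 of 16 windows of G1/S and replication genes, or 37.5%, against 2.26% of all 32851 windows. Those genes were Cdc6, Cdt1, Mcm3, Mcm5, Mcm6 and Mcm7. Among mitotic genes Cdk1 alone had one, in 5.26% of 19 windows. The CHR word showed the opposite split, in 15 of 19 mitotic windows (78.9%) and 2 of 16 windows of the other genes (12.5%), against 19.2% of all windows. All 15 of these mitotic windows also held the NF-Y box, a pair of words present in 7.52% of all windows. The NF-Y box was common in both sets, in 84.2% and 62.5% of windows against 37.4% overall. A match is a description of these letters and not a measured binding site.

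The 160 bases before the start are printed for 4 mitotic genes that were measured above the filter and hold both CHR and NF-Y words there. Each reads 5′ to 3′ on the strand of its gene, with E2F, CHR and NF-Y words in capitals. They lie on the minus strand at chr10:69352913-69353072 for Cdk1, chr4:118437344-118437503 for Cdc20, chr11:99024190-99024349 for Top2a and chr7:135716380-135716539 for Mki67.
Cdk1: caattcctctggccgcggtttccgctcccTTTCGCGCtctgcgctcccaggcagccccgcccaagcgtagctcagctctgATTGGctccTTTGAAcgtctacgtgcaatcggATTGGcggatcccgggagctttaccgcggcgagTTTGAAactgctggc
Cdc20: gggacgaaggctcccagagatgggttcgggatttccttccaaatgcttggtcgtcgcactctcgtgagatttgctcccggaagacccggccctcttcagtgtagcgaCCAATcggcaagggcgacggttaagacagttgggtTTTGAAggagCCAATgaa
Top2a: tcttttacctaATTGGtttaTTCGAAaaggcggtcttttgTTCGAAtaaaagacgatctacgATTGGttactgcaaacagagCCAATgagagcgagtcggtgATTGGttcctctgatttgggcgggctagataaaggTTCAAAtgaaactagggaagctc
Mki67: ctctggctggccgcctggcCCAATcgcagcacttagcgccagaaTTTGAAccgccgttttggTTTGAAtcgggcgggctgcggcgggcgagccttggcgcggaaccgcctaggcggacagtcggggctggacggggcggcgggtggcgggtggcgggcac

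The same stretch is printed for 2 helicase genes with E2F words and for Tk1, whose array values stand out below. They lie at chr1:128359706-128359865 on the minus strand for Mcm6, chr8:75109349-75109508 on the plus strand for Mcm5 and chr11:117826015-117826174 on the minus strand for Tk1.
Mcm6: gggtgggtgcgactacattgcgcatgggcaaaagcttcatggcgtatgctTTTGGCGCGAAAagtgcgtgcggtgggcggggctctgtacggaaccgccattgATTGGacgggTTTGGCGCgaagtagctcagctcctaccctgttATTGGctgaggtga
Mcm5: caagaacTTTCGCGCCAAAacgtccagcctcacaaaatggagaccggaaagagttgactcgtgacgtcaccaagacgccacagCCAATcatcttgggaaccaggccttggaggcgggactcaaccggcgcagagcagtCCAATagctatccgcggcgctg
Tk1: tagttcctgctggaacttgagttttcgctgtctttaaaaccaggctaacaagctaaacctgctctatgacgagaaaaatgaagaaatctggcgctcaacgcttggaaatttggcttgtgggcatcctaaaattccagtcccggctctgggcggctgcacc
The Tk1 window held none of the searched words, which says only that these letters are not in it.

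**Figure D1:**
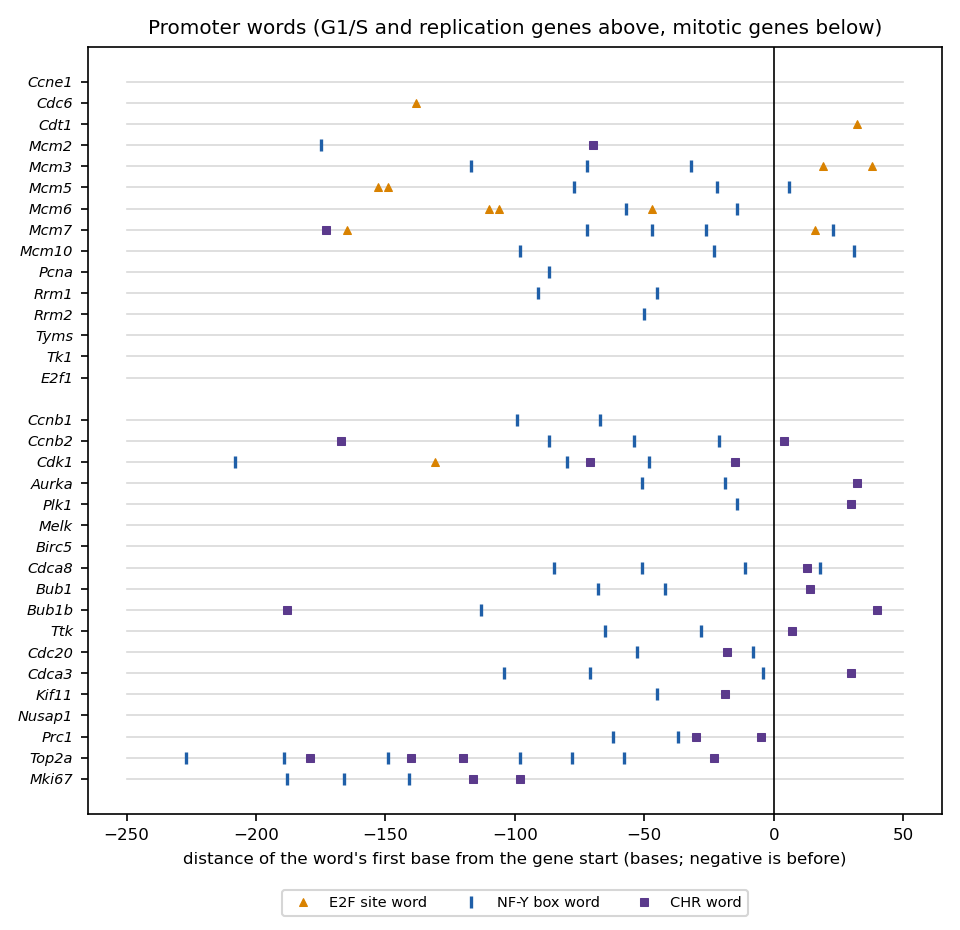
Position of each searched promoter word along the 300-base windows of 33 cell cycle genes, as the distance in bases of its first base from the gene start; each row is a gene, with both windows of Mcm7 and of Prc1 on 1 row. E2F words (triangles) sit in 6 of the G1/S and replication genes and in Cdk1, while CHR words (squares) sit in most mitotic genes and in Mcm2 and Mcm7.

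On every array the trimmed mean signal was 500, the median signal ran from 67.2 to 78.0, and Alb, the defining transcript of hepatocytes, ran from 38514 to 48625. Across all 11748 genes 25 passed limma at an adjusted p under 0.05, which is 0.213%. None of the 25 tested cell cycle genes passed limma, under which 4 had an unadjusted p under 0.05. These 4 were Ccnd1 and Cdt1, higher in AB6F1, and Tk1 and Mcm10, lower. That is 8% of the tested cell cycle genes on each side, where all genes gave 5.84% higher and 3.88% lower. The crosses were apart on all 4 arrays for 8 cell cycle genes higher in AB6F1 (32%) and 4 lower (16%), against 22.5% and 18.7% of all genes tested. With 2 mice against 2, an exact permutation test of a single value cannot give a p below 0.333, and the median SE was 0.40 over the tested cell cycle genes against 0.21 over all genes.

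The cell cycle genes lay on the higher side in AB6F1 more often than all genes. Of the 25 tested genes 17 were higher and 8 lower, or 68% higher against 53.5% of all genes tested. The median difference was 0.42 for the 16 G1/S and replication genes and 0.61 for the 9 mitotic genes, against 0.02 for all genes. Most of the 9 mitotic genes lay near the expression filter, and the genes under it had a median of 0.16. A median over genes of like signal was not taken. No test of either list was made. The sign of 23 of the 25 differences was the same under quantile, median and cyclic loess scaling, the exceptions being Pcna and Rrm2, both near 0.

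**Figure D2:**
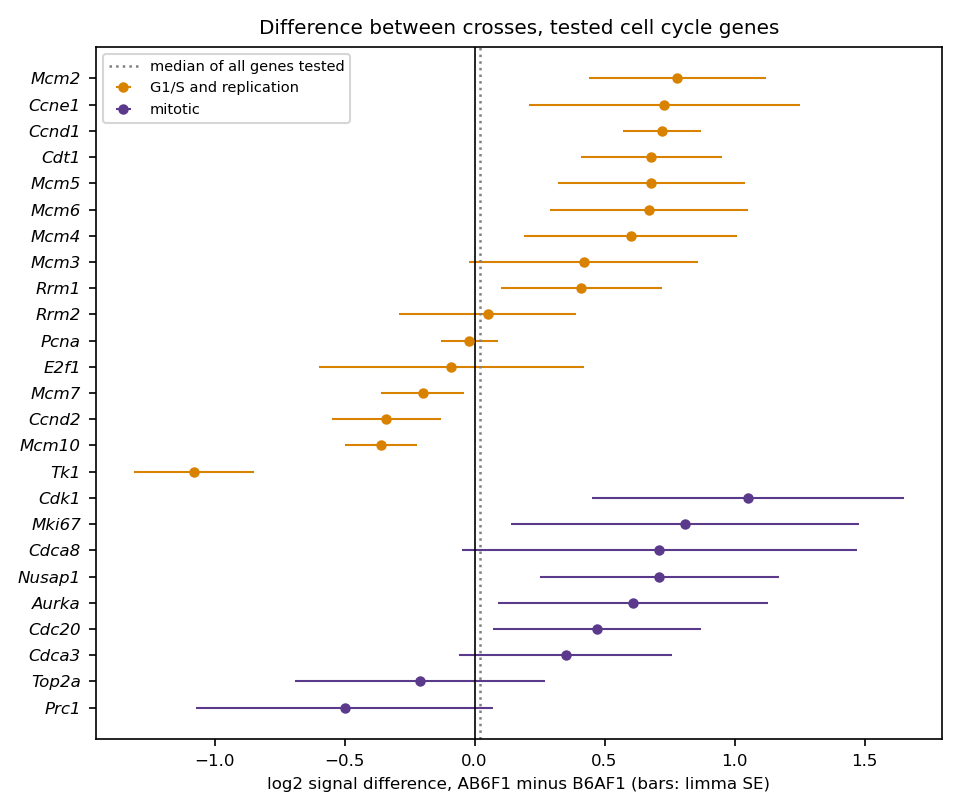
log2 signal difference of AB6F1 minus B6AF1 for the 25 tested cell cycle genes (points), with limma's SE (bars), G1/S and replication genes above and mitotic genes below; the dotted line marks the median of all genes tested at 0.02. Most points lie to the right of 0, from 1.05 for Cdk1 down to -1.08 for Tk1, and the bars of Mcm3, Rrm2, Pcna, E2f1, Cdca8, Cdca3, Top2a and Prc1 reach across 0.

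G1 cyclins start the sequence. Ccnd1 encodes cyclin D1, the partner of Cdk4 and Cdk6 that links growth signals to the cycle and is a usual readout of hepatocytes leaving rest. Its signal was 959.6 and 884.1 in AB6F1 against 547.2 and 568 in B6AF1. Both AB6F1 mice were above both B6AF1 mice, with means of 922 ± 53.4 (SD, n = 2) and 558 ± 14.7 (SD, n = 2), a 1.65-fold difference. The log2 difference was 0.72 ± 0.15 (SE; adjusted p = 0.209, limma), the smallest p among the 25 tested members and rank 114 among all genes. Its 2 other probe sets gave 0.65 and 0.88, again without overlap of the crosses.

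Ccnd2, cyclin D2, pointed the other way on its brightest probe set. Its signals were 272.8 and 271.2 in AB6F1 against 370.3 and 320.3 in B6AF1, a log2 difference of -0.34 ± 0.21 (SE; adjusted p = 0.649, limma). The crosses did not overlap there, but its 5 probe sets above the filter were on both sides, 4 lower and 1 higher. Ccne1, cyclin E1, which activates Cdk2 at the onset of S phase, was at 0.73 ± 0.52 on one probe set and at -0.55 on another. Ccne1 is therefore given no direction.

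Licensing loads the Mcm2-7 helicase onto origins, with Cdc6 and Cdt1 as loaders. Cdt1 had signals of 226.3 and 251.2 in AB6F1 against 134.5 and 165.8 in B6AF1. The crosses did not overlap, and the log2 difference was 0.68 ± 0.27 (SE; adjusted p = 0.494, limma), with a second probe set at 0.55. Cdc6 was dim on every array, from 2 to 8.2.

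Of the 6 helicase subunits, 5 were higher in AB6F1 on their brightest probe set and Mcm7 was lower, with no subunit past the test, and Mcm3 and Mcm5 had probe sets on both sides. Mcm2 had signals of 416.2 and 447.8 in AB6F1 against 362 and 174 in B6AF1. The crosses did not overlap, but B6AF1 replicate 2 lay far under the other mice. The log2 difference of Mcm2 was 0.78 ± 0.34 (SE; adjusted p = 0.526, limma), and it was 0.25 with B6AF1 replicate 2 left out and 1.31 with B6AF1 replicate 1 left out. Its other probe set gave 0.55.

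Mcm5 had signals of 134.4 and 201 in AB6F1 against 97.6 and 108.2 in B6AF1, a log2 difference of 0.68 ± 0.36 (SE; adjusted p = 0.603, limma). Its other probe set above the filter was on the opposite side at -0.31, with the crosses again not overlapping, so that Mcm5 is given no direction. Mcm6 was at 0.67 ± 0.38, Mcm4 at 0.60 ± 0.41 and Mcm3 at 0.42 ± 0.44, with another Mcm3 probe set at -0.10. For each of these 3 genes AB6F1 replicate 2 was the highest mouse, with signals of 228.2, 497.6 and 231.4.

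Mcm7 was nearly level, with signals of 748.9 and 848.1 in AB6F1 against 1000.1 and 836.6 in B6AF1. The crosses overlapped, and the log2 difference was -0.20 ± 0.16 (SE; adjusted p = 0.735, limma). All 4 of its probe sets above the filter were slightly lower, from -0.06 to -0.20.

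Mcm10, a replication factor that helps to activate the loaded helicase, was also lower. Its signals were 2691 and 2886 in AB6F1 against 3230 and 3941 in B6AF1. The crosses did not overlap, and the log2 difference was -0.36 ± 0.14 (SE; adjusted p = 0.482, limma). This rests on 1 probe set, since both others for Mcm10 lay under the filter, with signals from 3.9 to 76.9.

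At the fork, Pcna, the sliding clamp of the replicative polymerases, was the steadiest member. Its signals were 2916 and 2954 in AB6F1 against 2961 and 3003 in B6AF1. The log2 difference of Pcna was -0.02 ± 0.11 (SE; adjusted p = 0.964, limma). Although its arrays did not overlap, the whole range over the 4 mice was small.

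Nucleotide supply held the gene that was lowest in AB6F1 among those tested. Tk1, the cytosolic thymidine kinase of S phase, had signals of 306.6 and 466.7 in AB6F1 against 793.6 and 809.9 in B6AF1. Both AB6F1 mice were well below both B6AF1 mice, with means of 387 ± 113 (SD, n = 2) and 802 ± 11.5 (SD, n = 2), a 2.12-fold difference. The log2 difference was -1.08 ± 0.23 (SE; adjusted p = 0.209, limma). Without AB6F1 replicate 1 the log2 difference of Tk1 was -0.78 (adjusted p = 0.154, limma). Without AB6F1 replicate 2 it was -1.39 and passed limma (adjusted p = 0.0123), with the lone AB6F1 mouse assumed to vary like the B6AF1 pair; over all alternatives the adjusted p of Tk1 ran up to 0.859, as did that of Ccnd1, from 0.0893. Tk1 had 1 probe set.

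The subunits of ribonucleotide reductase, which makes deoxyribonucleotides, did not share this direction. Rrm1, the large subunit, was at 0.41 ± 0.31 and its second probe set at 0.36. Rrm2, the small subunit, was at 0.05 ± 0.34 on its brightest probe set, whose suffix, _x_at, marks possible binding of related transcripts. Its second probe set was at 1.35, with signals of 116.4 and 187.6 in AB6F1 against 66.7 and 50.1 in B6AF1. Tyms, thymidylate synthase, was dim, from 15.5 to 48 on its brightest probe set. Other dim probe sets of Tyms were apart on both sides, at -2.15 and 1.15. E2f1, the transcription factor of this set, was at -0.09 ± 0.51, with AB6F1 signals as far apart as 74.3 and 194.4.

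**Figure D3:**
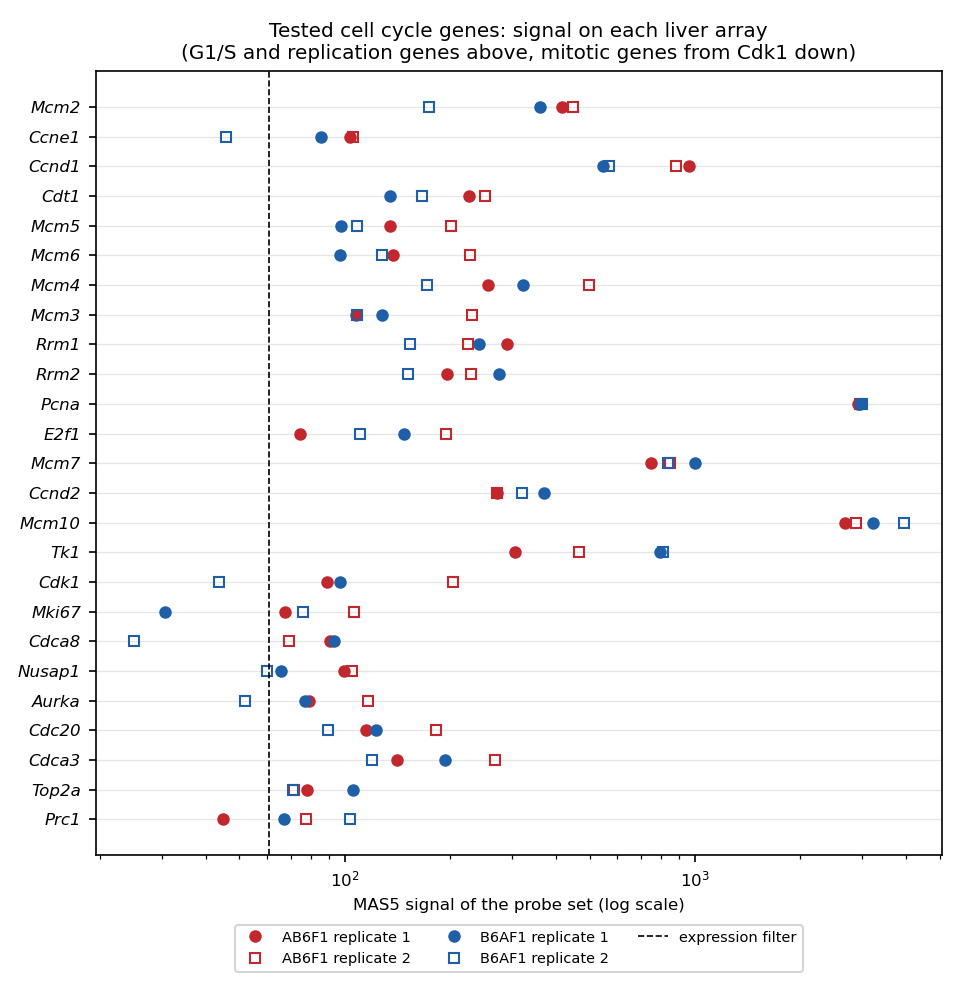
Signal of each of the 25 tested cell cycle genes on each array (log axis; circles replicate 1, squares replicate 2, red AB6F1, blue B6AF1), with the expression filter of 60.9 as a dashed line; probe sets differ in brightness, so rows are not compared with each other. Ccnd1 has both red points above both blue points and Tk1 has them below, while most mitotic genes lie near the filter with mixed colours.

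Mitotic genes were mostly near or under the expression filter, a signal of 60.9, which is the median of all probe sets. Cdk1, the kinase that drives entry into mitosis, had signals of 89.1 and 204.1 in AB6F1 against 96.7 and 43.7 in B6AF1. AB6F1 replicate 2 was high and B6AF1 replicate 2 low, while the remaining mouse of each cross was alike. The log2 difference of Cdk1 was 1.05 ± 0.60 (SE; adjusted p = 0.624, limma). It became 0.45 with AB6F1 replicate 2 left out and 0.48 with B6AF1 replicate 2 left out, and was 1.65 with AB6F1 replicate 1 left out.

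Mki67, the antigen of cycling cells, showed signals of 67.5 and 105.9 in AB6F1 against 30.7 and 75.8 in B6AF1. The crosses overlapped, with a log2 difference of 0.81 ± 0.67 (SE; adjusted p = 0.735, limma). Leaving out B6AF1 replicate 1 gave 0.16 for Mki67, and leaving out B6AF1 replicate 2 gave 1.46. Top2a, the topoisomerase that untangles sister chromosomes, had 77.9 and 71.4 against 105.4 and 71. Its log2 difference was -0.21 ± 0.48 (SE; adjusted p = 0.91, limma). Other Top2a probe sets, under the filter, were on the higher side, at 0.36 and, with the crosses apart, at 0.27. On their brightest probe sets these usual proliferation readouts therefore lay on opposite sides of 0, each with an SE close to or above its own size.

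Among spindle genes, Nusap1, a protein that bundles spindle microtubules, had signals of 99.7 and 105.1 in AB6F1 against 65.5 and 60.1 in B6AF1. The crosses did not overlap, and the log2 difference of Nusap1 was 0.71 ± 0.46 (SE; adjusted p = 0.662, limma); another probe set, under the filter, gave -0.77. Aurka, the Aurora kinase of spindle poles, had 79 and 116.6 against 76.7 and 51.8, also without overlap, at 0.61 ± 0.52 (SE; adjusted p = 0.745, limma); another probe set of Aurka under the filter was apart on the lower side, at -0.93. Prc1, which bundles microtubules of the midzone for cytokinesis, was lower, with 44.8 and 77.3 against 66.9 and 103.6, at -0.50 ± 0.57 (SE; adjusted p = 0.809, limma). Another Prc1 probe set under the filter gave 3.22, from AB6F1 signals of 56.9 and 95 and B6AF1 signals of 7.8 and 8.

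Among checkpoint, anaphase and passenger complex genes, none of the 3 tested was apart between the crosses on its brightest probe set. Cdc20, the activator of the anaphase-promoting complex, was at 0.47 ± 0.40 with a second probe set at 1.22. Cdca3, a trigger of mitotic entry, was at 0.35 ± 0.41, with its 3 probe sets above the filter on both sides. Cdca8, the borealin subunit of the chromosomal passenger complex, was at 0.71 ± 0.76, where B6AF1 replicate 2 had a signal of 25 against 69.4 to 93.4 in the remaining mice.

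The 15 dim genes have no test. Of these 12 were mitotic, and 12 of the 15 were higher in AB6F1, or 80% against 55.3% of all 6445 dim genes. Their arrays did not overlap in 4 genes higher (26.7%, against 20.1% of dim genes) and 1 lower (6.67%, against 14.3%). The 4 higher genes were Ccne2, Bub1, Ttk and Kif20a, and the lower one was Aurkb, the Aurora kinase of the passenger complex. Bub1 and Ttk each had another dim probe set that was apart on the lower side, at -1.09 and -1.35, and are given no direction. Bub1, a checkpoint kinase, had signals of 20 and 60.3 in AB6F1 against 4.2 and 3.7 in B6AF1, and Kif20a, a cytokinesis motor, had 49 and 71.7 against 23.4 and 8. Kif20a, Bub1 and Ccne2 were each at or above the filter on at most 2 arrays. Ccna2 and Bub1b reached the filter on 3 arrays on their brightest probe sets and still overlapped between the crosses there. Another dim probe set of each was apart on the higher side, at 1.53 for Ccna2 and 2.42 for Bub1b. A further Bub1b probe set overlapped, at -0.18. Ccnb2, a mitotic cyclin, had a signal of 112.2 in AB6F1 replicate 2 and 5.1 to 22.5 in the remaining mice. On their brightest probe sets Melk, Birc5 and Kif11 stayed under the filter on every array, and the crosses overlapped for each, as they did for Foxm1 and Plk1. Other dim probe sets of Kif11 and Foxm1 were apart, at 2.21 for Kif11 and at -1.53, -0.65 and 2.36 for Foxm1.

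**Figure D4:**
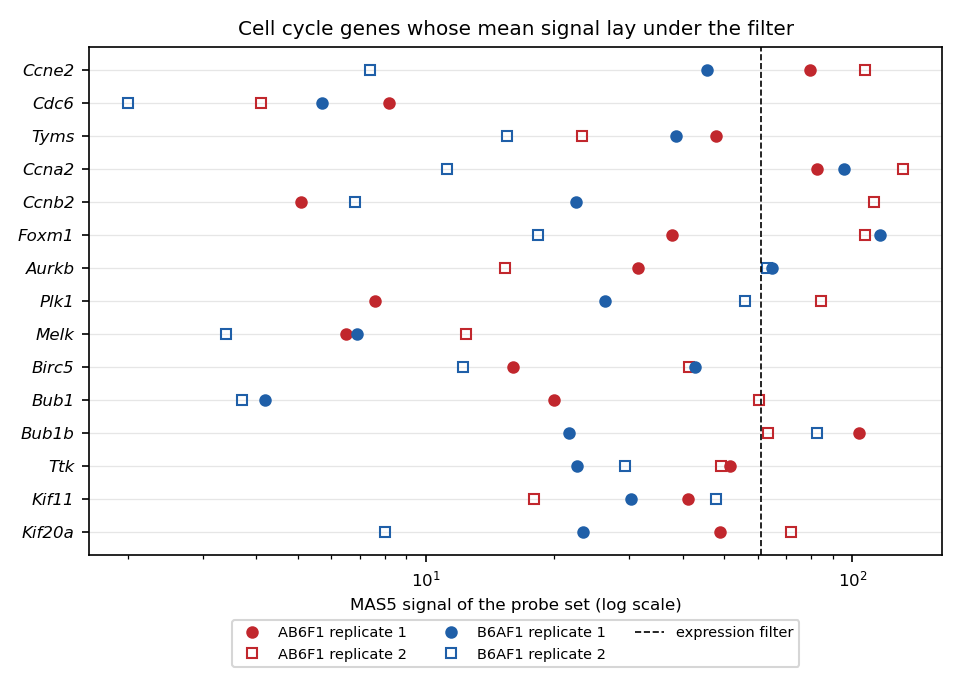
Signal on each array of the 15 cell cycle genes whose mean log2 signal lay under the filter (log axis; circles replicate 1, squares replicate 2, red AB6F1, blue B6AF1; dashed line, the filter of 60.9). B6AF1 replicate 2 (open blue squares) is the lowest mouse in 9 of the 15 genes (60%, against 31.2% of all dim genes). AB6F1 replicate 2 (open red squares) is the highest in 7 (46.7%, against 27.5% of all dim genes).

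Much of the pattern followed single mice within each cross. AB6F1 replicate 2 was the highest of the 4 mice in 8 of 16 G1/S and replication genes and 6 of 9 mitotic genes, against 23.4% of all genes tested. B6AF1 replicate 2 was the lowest in 7 of 9 mitotic genes, against 26.8% of all genes tested. Among the 16 G1/S and replication genes it was the lowest in 5 (31.2%), near that share. There AB6F1 replicate 1 was the lowest most often, in 6 (37.5%, against 24.7% of all genes tested). Averaged over the 9 mitotic genes, the crosses differed by 0.44, whereas AB6F1 replicate 2 exceeded AB6F1 replicate 1 by 0.48 and B6AF1 replicate 1 exceeded B6AF1 replicate 2 by 0.39. For the 16 G1/S and replication genes these values were 0.23, 0.36 and 0.27, and for the Mcm2-7 helicase 0.49, 0.61 and 0.32. Over all genes tested they were 0.07, -0.05 and 0.01. The gap between mice of 1 cross was thus about as large as that between the crosses.

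With AB6F1 replicate 2 left out, the G1/S and replication median of 0.42 became 0.04 and the mitotic median of 0.61 became 0.33. With B6AF1 replicate 2 left out they were 0.11 and 0.24. They were 0.64 and 0.80 without AB6F1 replicate 1, and 0.50 and 0.70 without B6AF1 replicate 1. As each mouse was left out, the log2 difference ran from 0.39 to 0.97 for Mcm5, from 0.32 to 0.89 for Aurka, from -0.89 to -0.11 for Prc1, from -0.50 to -0.21 for Mcm10 and from -0.33 to -0.07 for Mcm7. That of Ccnd1 ran from 0.67 to 0.78. Probe set choice also mattered for the G1/S and replication genes, whose median was 0.10 when all probe sets of a gene were averaged, which left 13 genes above the filter, and 0.19 without suffixes _x_at and _s_at, where 8 of 16 genes were higher. Among the 5 of them above the 75th percentile of signal the median was -0.20. B6AF1 replicate 2 also had the lowest median signal of the arrays, 67.2, and its part in the low values was not tested.

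**Figure D5:**
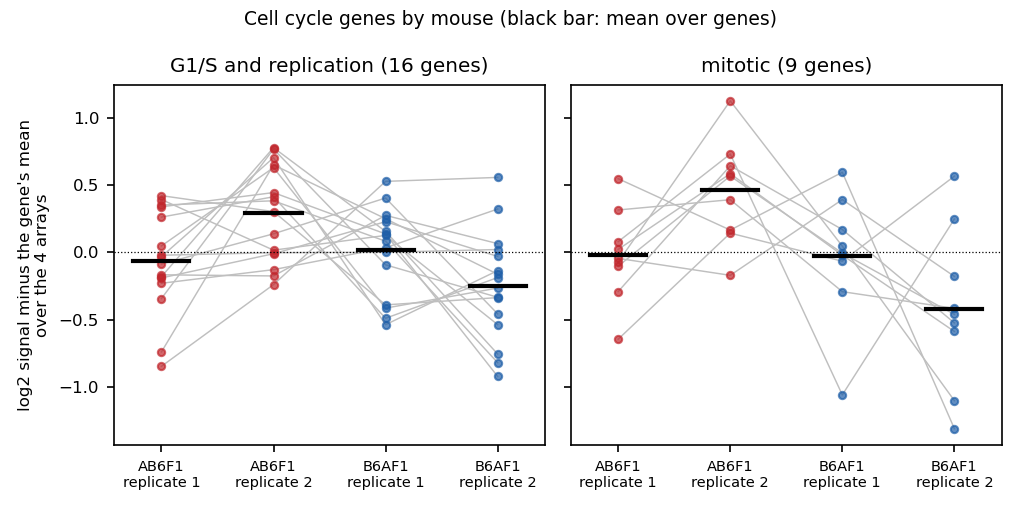
log2 signal of each tested cell cycle gene minus its own mean over the 4 arrays, by mouse, for 16 G1/S and replication genes (left) and 9 mitotic genes (right); grey lines join the values of a gene and black bars are means over genes. For mitotic genes the bars are at -0.02 and 0.46 in AB6F1 against -0.03 and -0.42 in B6AF1.

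Other genes of the same pathways, 110 in 4 lists, had a median difference of 0.06 over the 80 tested, 46 higher and 34 lower, and none passed limma (9 had an unadjusted p under 0.05, 6 higher and 3 lower, or 7.5% and 3.75% against 5.84% and 3.88% of all genes). Of 24 other mitotic genes tested 17 were higher, with a median of 0.13. Wee1, the kinase that restrains Cdk1, had signals of 444.6 and 534.1 in AB6F1 against 202.9 and 182 in B6AF1, a log2 difference of 1.34 ± 0.22 (SE; adjusted p = 0.115, limma), the closest to the threshold of all cell cycle genes examined. Ncaph, a condensin subunit, was at 0.98 ± 0.37 and Cks2, a small Cdk1-binding protein, at -0.37 ± 0.12, with limma adjusted p of 0.466 and 0.421.

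Replication fork and licensing genes outside the set were balanced, with 16 higher and 14 lower of 30 tested and a median of 0.02. Pola1, the catalytic subunit of polymerase alpha, is X-linked, so its copy comes from the AJ dam in AB6F1 and from the B6 dam in B6AF1. Its signals were 195.2 and 211.9 in AB6F1 against 110.8 and 114.5 in B6AF1, at 0.85 ± 0.30 (SE; adjusted p = 0.437, limma). Fen1, the flap nuclease of lagging strand processing, was at 1.25 ± 0.45, with B6AF1 signals of 741.1 and 246 that were unlike. Rfc3, a clamp loader subunit, was lower at -0.61 ± 0.23, and neither passed limma (adjusted p = 0.451 and 0.473).

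Of 9 tested inhibitors and pocket proteins 5 were higher, with a median of 0.08 and none past limma. Cdkn2c, the p18 inhibitor of Cdk4 and Cdk6, had signals of 823.5 and 314.8 in AB6F1 against 207.8 and 218.9 in B6AF1, at 1.26 ± 0.42 (SE; adjusted p = 0.424, limma). Cdkn1a, the p21 inhibitor that p53 induces, was at 0.81 ± 0.45, and Cdkn2d, the p19 inhibitor of the same kinases as p18, at 0.56 ± 0.40, with limma adjusted p of 0.615 and 0.69. Among 17 other G1/S regulators tested 8 were higher, with a median of -0.00. Myc, the growth-driving transcription factor, had signals of 210.9 and 165.8 in AB6F1 against 63.9 and 91.9 in B6AF1, at 1.29 ± 0.39 (SE; adjusted p = 0.383, limma). Ccnd3, the remaining D-type cyclin, was lower at -0.45 ± 0.14 (SE; adjusted p = 0.407, limma), with 982.4 and 886.2 against 1331 and 1217, so that Ccnd1 lay on the opposite side from Ccnd3. E2f3, an activator of the E2F family, was at 0.46 ± 0.21 (SE; adjusted p = 0.535, limma).

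Set against the promoter words, the 6 tested members with an E2F word had a median difference of 0.67, 5 of them higher. The 10 with both CHR and NF-Y words had a median of 0.54, 7 of them higher, and the 8 with neither an E2F nor a CHR word had a median of 0.01, 4 of them higher. Over all genes tested with a window the corresponding medians were 0.04 for 429 genes with an E2F word, 0.03 for 722 with CHR and NF-Y words and 0.02 for 7646 with neither. Cdk1 and Mcm7 are in both the E2F class and the class with CHR and NF-Y words. Mcm3, Mcm5, Mcm6 and Mcm7, all with an E2F word, are subunits of the same helicase. Mcm3 and Mcm5 had probe sets on both sides, as did Cdca3 and Ccne1 in the other classes. The members share mice and pathway, and the difference between word classes was not tested.

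Whole liver holds several dividing cell types, and their markers are given beside these values. Macrophage markers were higher in 10 of 10 tested genes of 12, with a summed signal of 10374 to 16300 in AB6F1 and 6757 to 9220 in B6AF1. The crosses overlapped for Cd5l, at 0.43, and Clec4f, at 0.29. Marco and Timd4 were dim. Timd4 was apart on the lower side, with signals of 41.5 and 34 in AB6F1 against 66.2 and 115.9 in B6AF1. Stellate cell markers were higher in 6 of 8, summing to 12071 to 15832 against 9423 to 9594. Col3a1 and Col1a2 rose (limma adjusted p = 0.00931 and 0.0402). Col1a1, Lrat and Pdgfrb were at 3.24, 0.73 and 0.54, while Dcn, Rgs5 and Des were at 0.03, -0.01 and -0.22. Col1a1 had a signal of 16.7 in B6AF1 replicate 2 against 96.6 to 467.4 in the remaining mice. The array means of the stellate markers, centred over the 4 mice, were 0.18 and 0.76 in AB6F1 against -0.29 and -0.65 in B6AF1, in which AB6F1 replicate 2 was highest and B6AF1 replicate 2 lowest, as for the mitotic genes. Those of the macrophage markers were 0.68, 0.14, -0.66 and -0.16, with AB6F1 replicate 1 highest and B6AF1 replicate 1 lowest. Those of the 3 tested erythroid markers were -0.02, 0.25, -0.05 and -0.18, with the same highest and lowest mouse as the stellate markers. Of the 3, only Tfrc had both that highest and that lowest mouse, with a log2 difference of 0.99. Klf1, at -0.32, was highest in B6AF1 replicate 2, and Alas2, at 0.03, was lowest in AB6F1 replicate 1. Hepatocyte markers were lower in 9 of 10, summing to 297688 to 319105 against 319937 to 363247. Their median difference was -0.15, from -0.60 for Tat to 0.02 for Hnf4a, and none passed limma. The crosses were apart for 4 of the 10 (40%, against 18.7% of all genes tested), all lower. One of these, Ass1, was read by a probe set of low signal, 117.5 to 197.5.

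Endothelial markers summed to 2978 to 3495 in AB6F1 and 2621 to 3543 in B6AF1 (4 of 6 tested higher), cholangiocyte markers to 309 to 351 against 241 to 263 (3 of 3) and neutrophil markers to 413 to 1315 against 253 to 418 (3 of 4). T and NK cell markers summed to 155 to 304 against 182 to 303 (2 of 3), B and plasma cell markers to 478 to 652 against 501 to 592 (2 of 4) and erythroid markers to 5467 to 7525 against 4829 to 6394 (2 of 3). No marker was listed at 0, the lowest signal being 2.7. Cd3d, Cd3g, Cd4, Nkg7, Ms4a1, Hba-a1, Epb42, Camp, Ltf, Pecam1, Krt7, Cftr and Sctr were dim. The part of these cell types in the cell cycle values was not tested.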

How the data were processed

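The deposited values are the signal intensity of 45101 probe sets on 4 arrays. The authors computed them with MAS5, per the submitters' processing notes, and from the values each array was scaled to a mean of 500 after trimming 2% at each end, a scaling that removes any change common to the whole array. Platform annotation gave 34945 probe sets 1 symbol, updated through gene identifiers to RefSeq (GRCm38.p6) for 34741. Each gene was read by its probe set of highest mean log2 signal, and genes whose mean log2 signal fell below the median of all probe sets (60.9) were called dim and left out of tests. No build is named for the platform annotation.

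log2 signal, with no pseudocount, was fitted across all genes by limma 3.58.1 in R 4.3.3 (lmFit, eBayes with intensity trend, two-sided, Benjamini-Hochberg adjustment, threshold 0.05); prior degrees of freedom were 4.96, residual 2. The fit was tested on simulated data. The members and lists were chosen with earlier results of these data known. Genes given in full are the 4 higher and 4 lower of smallest p in each role plus Mki67, Top2a, Pcna, Ccnd1, Cdk1 and Mcm2; from each other cell cycle list, the 3 of smallest p are named. Alternatives changed the scaling, filter, probe set rule, variance model, threshold, replicate block and mice included. Precision is limited by the number of arrays.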

Additional observations from a re-analysis of the deposited data

How the results depend on the processing

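The count of 25 genes past limma over all genes was 50 after median centring, which shifted the median of all differences from 0.02 to -0.11, 46 at an adjusted p of 0.1, and 0 by limma without the intensity trend (1044 genes at an unadjusted p under 0.05). It ran from 1 to 241 as each mouse was left out: 1 without B6AF1 replicate 1 or B6AF1 replicate 2, 79 without AB6F1 replicate 1 and 241 without AB6F1 replicate 2. With the replicate number as a block it was 62; the numbers are shared by label only, and the deviations of same-numbered arrays correlated at -0.03, so the block carries no known pairing. The count of cell cycle genes past the test stayed at 0 under these alternatives, except that it ran from 0 to 1 as each mouse was left out, with Tk1 passing without AB6F1 replicate 2; this block left it at 0. The G1/S and replication median of 0.42 was -0.20 with the filter at the 75th percentile, where no mitotic gene was left, 0.10 with all probe sets averaged, and 0.04 to 0.64 as each mouse was left out. The mitotic median ran from 0.24 to 0.80 in the same way and moved by less than its replicate SD of 0.38 under every alternative that left mitotic genes. That SD comes from the gaps between mice of a cross, which also set the moves as each mouse was left out. Staying within it is therefore no measure of how steady the median was. Of 229 values of the 15 genes given in full, 226 kept their sign and their side of the threshold. Alternatives of variance model, replicate block and threshold leave the log2 difference as it was, so its sign was fixed in those. Mcm5 was at -0.31 once the suffixes _x_at and _s_at were left out. Top2a ran from -0.50 to 0.07 as each mouse was left out, at 0.07 without B6AF1 replicate 1. Pcna is counted among the 226, although it was at 0.00 under quantile and cyclic loess scaling and did not keep its sign under every scaling. The causes were not tested.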
